A study of Mus musculus with 7 samples.

Results

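The 10 genes that mark brown and beige fat were measured in RNA-Seq libraries of mature white adipocytes: Ucp1, Cidea, Ppargc1a, Prdm16, Dio2, Cox8b, Elovl3, Cpt1b, Tmem26 and Fgf21. They were chosen by name, and each matched 1 row of the count table, so that 10 of its 57010 gene identifiers are described. The libraries came from 3 FFA2 fl/fl control mice and 4 Adipoq-F2-KO mice. Both genotypes carried floxed alleles of FFA2, a receptor for short-chain fatty acids encoded by Ffar2, and the Adipoq-F2-KO mice also carried Adiponectin-Cre, which deletes the floxed gene in fat cells. All mice were male littermates of 20 weeks, housed together at ambient temperature on standard chow with no other treatment, and their strain is not given in the labels. The adipocytes were freed from perigonadal fat with collagenase. Because Adiponectin-Cre is active in brown, beige and white adipocytes alike, the deletion in these mice is not limited to the white cells that were sequenced. Housing at ambient temperature is a mild cold exposure for mice.

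Brown fat cells burn fuel to make heat. Noradrenaline released by sympathetic nerves acts on beta-adrenergic receptors, which raise cAMP, and cAMP in turn drives lipolysis and the transcription of heat-producing genes through factors that bind the cAMP response element (CRE). Beige cells arise within white depots and use much of the same programme, and perigonadal fat is known as the mouse depot that turns beige least readily. The 10 genes hold different places in this programme: the uncoupling protein itself (Ucp1), its transcriptional regulators (Ppargc1a and Prdm16), proteins that handle fuel and respiration (Cidea, Cox8b, Elovl3 and Cpt1b), an enzyme and a hormone that act as signals (Dio2 and Fgf21), and a surface marker of beige cells (Tmem26).

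The promoters of 3 of these genes are shown because they carry the letters of the CRE core, in Dio2 within the full element. Another reason is that 2 of them, Dio2 and Fgf21, belong to the genes whose values separated the genotypes below. Ucp1 is shown as the gene that defines brown fat. Each run covers 250 bases before and 50 after the start of the gene, read 5′ to 3′ on the strand of the gene, from RefSeq on build GRCm38.p6. Capitals mark the CRE core, TGACG or its reverse complement CGTCA, and positions count from 1 at the start, with negative numbers before it.
Dio2, chr12:90738989-90739288, - strand: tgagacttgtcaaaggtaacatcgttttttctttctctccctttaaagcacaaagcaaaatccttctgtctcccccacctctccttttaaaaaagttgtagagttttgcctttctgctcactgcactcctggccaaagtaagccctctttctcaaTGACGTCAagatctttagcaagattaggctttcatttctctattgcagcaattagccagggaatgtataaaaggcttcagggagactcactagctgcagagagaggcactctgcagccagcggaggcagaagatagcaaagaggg
Fgf21, chr7:45615441-45615740, - strand: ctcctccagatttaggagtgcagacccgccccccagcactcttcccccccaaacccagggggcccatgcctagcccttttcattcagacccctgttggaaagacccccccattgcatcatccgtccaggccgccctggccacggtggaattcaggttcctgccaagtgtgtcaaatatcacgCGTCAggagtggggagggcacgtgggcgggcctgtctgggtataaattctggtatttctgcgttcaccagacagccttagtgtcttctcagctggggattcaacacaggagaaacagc
Ucp1, chr8:83290098-83290397, + strand: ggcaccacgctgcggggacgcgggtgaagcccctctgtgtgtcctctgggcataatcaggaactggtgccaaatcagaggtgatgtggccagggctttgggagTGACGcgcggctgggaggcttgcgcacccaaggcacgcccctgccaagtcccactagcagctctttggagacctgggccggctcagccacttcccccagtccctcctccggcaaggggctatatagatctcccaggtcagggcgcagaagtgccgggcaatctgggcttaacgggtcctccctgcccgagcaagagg
The Dio2 promoter held the full palindrome TGACGTCA at position -95, which contains the core on both strands, and a TATAAA box at position -30. The full palindrome was found in 1.79% of 32851 promoters of this length. The Fgf21 promoter held the core at position -68 and TATAAA at position -28, and the Ucp1 promoter held the core at position -147. A core on either strand was present in 20.8% of all promoters and TATAAA in 13.6%. Of the 7 members with a promoter entry (Ucp1, Ppargc1a, Prdm16, Dio2, Cox8b, Tmem26 and Fgf21), Ppargc1a also held the core, at position -49, and it was not found in this window of Prdm16, Cox8b or Tmem26. These are matches of letters and not measured binding sites.

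The libraries held between 30478997 and 39992605 counts. Low counts were mostly even, as when each mate is counted, so 1 fragment was taken to add 2 counts, and 0 counts in a library allowed up to 0.150 to 0.197 CPM (counts relative to the total of the library), the value of 3 fragments, for counting error alone. Ffar2, the deleted gene, lay between 32.04 and 37.49 normalized CPM in the controls and between 1.15 and 2.58 in the Adipoq-F2-KO libraries, so the genotype labels held (log2 fold change -4.36, SE 0.22, edgeR adjusted p = 7.97e-06). Adipoq, the adipocyte hormone, had a mean of 7163 TPM (abundance relative to the library and to transcript length), and all 7 adipocyte markers were detected, whereas Zic1, a marker of classical brown fat, had 0 counts in every library. Adipoq-F2-KO library 4 stood apart. It had the largest share of mitochondrial counts (10.3%, against 6.61% to 9.24% in the other Adipoq-F2-KO libraries and 4.41% to 5.77% in the controls). It also had the largest share of the identifier ENSMUSG00000119584, which was matched to no symbol here (6.76%, against 0.619% to 3.75% in the others). Its summed adipocyte markers were the lowest (49070 normalized CPM, against 52750 to 63100) and its summed endothelial markers the highest (1940, against 855 to 1346). Values without it are given where a result rests on it.

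Measured per length of transcript, the brown and beige genes were scarce in these adipocytes. Averaged over the 7 libraries, Cox8b stood at 32.8 TPM and was the only member above the median of the 17039 tested genes, 8.13 TPM. Cidea followed at 5.30 TPM, Fgf21 at 2.35, Ppargc1a at 2.13, Ucp1 at 1.77, Prdm16 at 1.62 and Dio2 at 0.513. Tmem26 (0.0607 TPM), Cpt1b (0.0443) and Elovl3 (0.0400) were close to nothing, with at most 10, 8 and 4 counts in any library. The ranges over libraries of Cidea, Fgf21, Ppargc1a, Ucp1 and Prdm16 overlapped, so the order among these 5 is not fixed by their means. Cox8b, from 21.1 to 45.2 TPM, overlapped none of the others.

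Where a brown fat gene has a relative used by white fat or by most tissues, the relative was far more abundant. Cidec, which lets lipid droplets fuse in white adipocytes, had 7216 TPM, and its brown fat relative Cidea reached 0.0214% to 0.152% of it. Cox8a, the common form of cytochrome c oxidase subunit 8, had 1173 TPM, and Cox8b, the form of muscle and brown fat, reached 1.69% to 3.85% of it. Cpt1a, the liver-type enzyme that admits fatty acids to mitochondria, had 34.3 TPM, against 0.0443 for Cpt1b. The elongases Elovl5 and Elovl6 had 53.8 and 15.7 TPM, against 0.0400 for Elovl3. Ucp2 (66.1 TPM) and Ucp3 (17.5 TPM) both lay above Ucp1 as means, and Ucp1 amounted to 0% to 2.41% of Ucp2 in 6 libraries and to 15.5% in Adipoq-F2-KO library 4. The regulators differed less: Ppargc1a stood at 23.97% to 42.26% of its relative Ppargc1b (7.02 TPM), and Prdm16 at 35.7% to 119% of its relative Mecom (2.40 TPM).

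**Figure D1:**
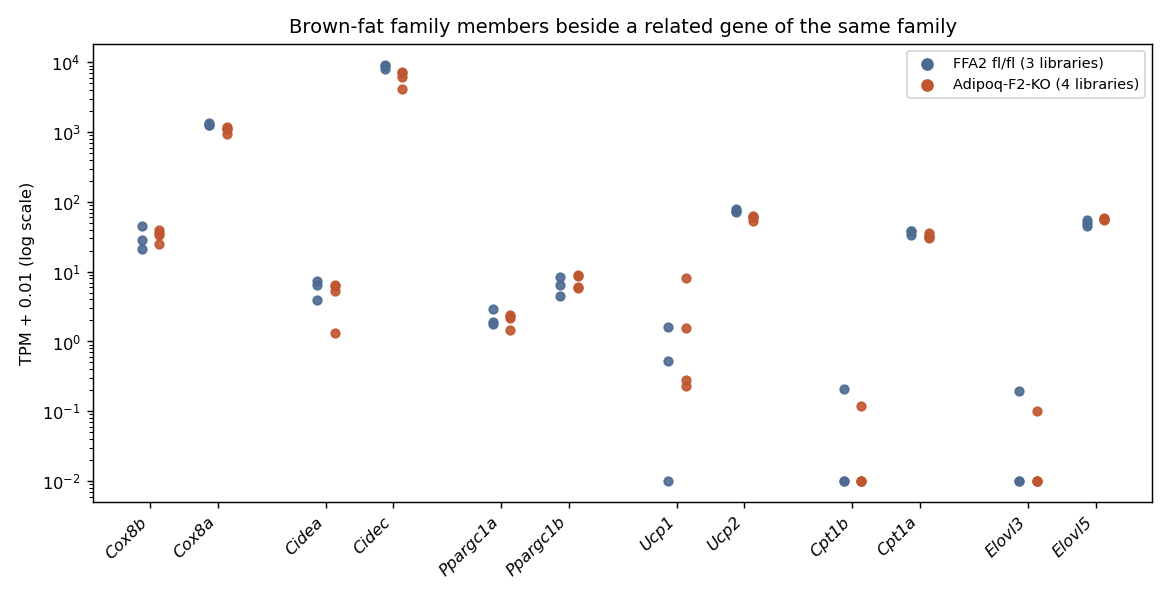
TPM plus 0.01, on a log scale, of 6 brown fat genes, each beside a relative of the same family, with 1 point per library and the genotypes in 2 colours. Points at the bottom of the axis are libraries with 0 counts. Cidec averaged 7216 TPM against 5.30 for Cidea, and Cox8a 1173 against 32.8 for Cox8b.

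No member differed between the genotypes past the threshold. Of the 10 genes, 7 passed the filter on low counts and were tested, and 0 had an adjusted p under 0.05 with edgeR, where 1.02% of all 17039 tested genes were called. DESeq2 likewise called 0, where it called 4.58% of its genes. At an unadjusted p under 0.05 edgeR gave 1 member, Dio2, where 17.9% of all tested genes reached that level and 10.5% did so on the higher side. The genotypes did not overlap in 2 members, Dio2 and Fgf21, both higher in Adipoq-F2-KO, where 17.6% of tested genes did not overlap and 8.86% did so in that direction. The median log2 fold change of the 7 tested members was 0.22, with 5 above 0 and 2 below, where 50.4% of all tested genes lay above 0. This median moved with single libraries, from 0.01 (4 above 0 and 3 below) without FFA2 fl/fl library 2 and 0.04 (3 above and 3 below) without Adipoq-F2-KO library 4 to 0.56 without FFA2 fl/fl library 3.

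**Figure D2:**
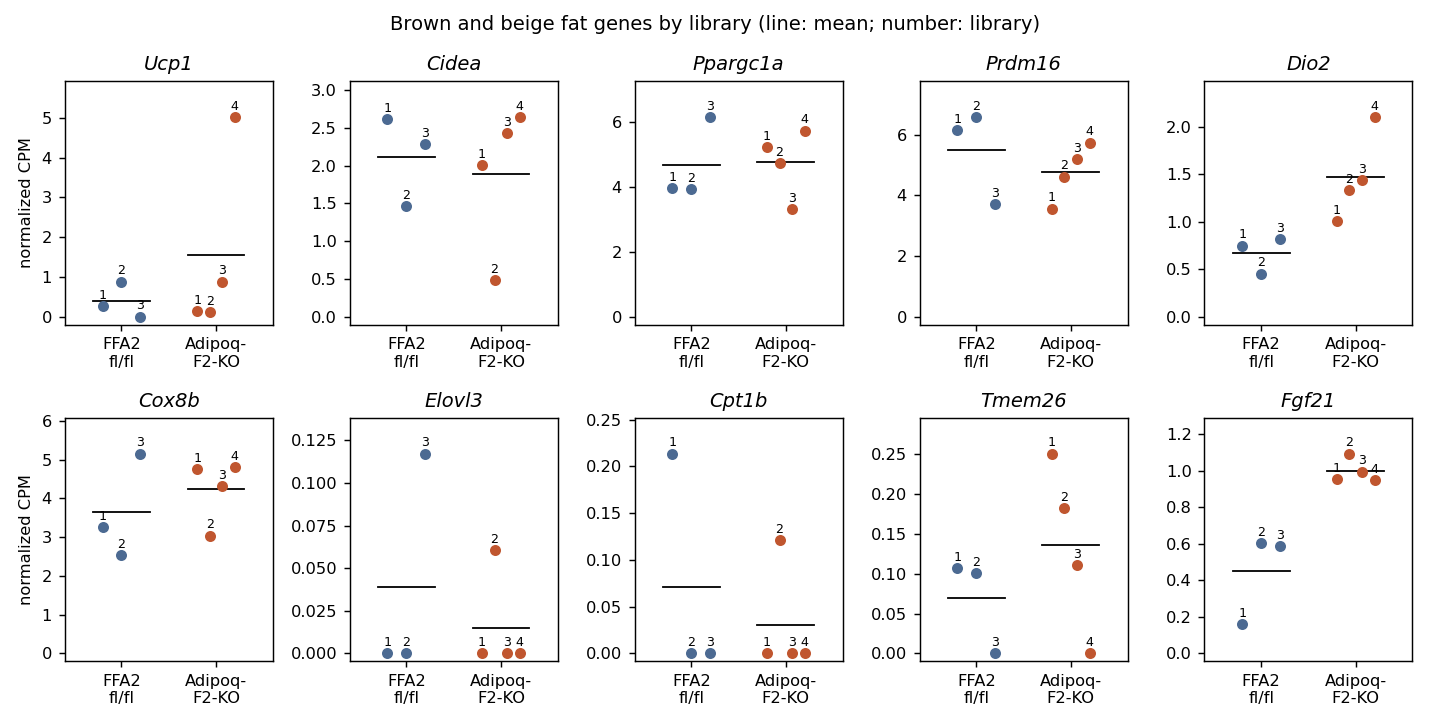
Normalized CPM of the 10 genes in each library, with the library number beside each point and a line at the mean of each genotype (3 FFA2 fl/fl and 4 Adipoq-F2-KO libraries). The axis differs between genes. Ucp1 stands at 5.02 in Adipoq-F2-KO library 4 and at or under 0.885 in the other libraries, and the 2 genotypes do not overlap for Dio2 and Fgf21.

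Ucp1, the protein that lets protons leak across the inner mitochondrial membrane, is encoded on chromosome 8 at 84016981 to 84025081 on the + strand (coordinates here and below as the deposited table gives them). It had 10, 35 and 0 counts in FFA2 fl/fl libraries 1, 2 and 3, or 0.267, 0.882 and 0 normalized CPM. In Adipoq-F2-KO libraries 1 to 4 it had 6, 4, 32 and 148 counts, or 0.151, 0.122, 0.885 and 5.02 normalized CPM. Library 4 therefore held most of the Ucp1 of its genotype, while the other 3 Adipoq-F2-KO libraries lay between 0.122 and 0.885, against 0 to 0.882 in the controls. Its 74 fragments placed library 4 between 3.94 and 6.30 normalized CPM (exact Poisson 95% interval, counting error only), above the upper limit of every other library, of which the highest was 1.44. The mean was 0.383 ± 0.452 normalized CPM (SD, n = 3) in the controls and 1.54 ± 2.34 (SD, n = 4) in Adipoq-F2-KO, and 0.386 ± 0.433 (SD, n = 3) in Adipoq-F2-KO without library 4. The log2 fold change was 1.97 with an SE of 1.32 and a 95% interval from -0.92 to 4.87 (edgeR adjusted p = 0.465), and an exact two-sided permutation test over the 35 possible assignments of the genotypes gave p = 0.686. With Adipoq-F2-KO library 3 or 4 left out, Ucp1 no longer passed the filter and could not be fitted, and with each of the other libraries left out the log2 fold change lay between 1.41 (without FFA2 fl/fl library 3) and 3.46 (without FFA2 fl/fl library 2). The same library 4 had the highest endothelial and macrophage marker sums and the lowest adipocyte sum, and their part in its Ucp1 value was not tested. In bulk RNA, fewer cells of a kind and less RNA per cell cannot be told apart.

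Adrb3, Adrb1 and the related carriers Ucp2 and Ucp3 did not pass the test. Adrb3, the beta-adrenergic receptor typical of mouse adipocytes, lay at 670, 810 and 638 normalized CPM in the controls and at 524, 626, 605 and 360 in Adipoq-F2-KO, with no overlap and the lowest value in library 4 (log2 fold change -0.42, SE 0.17, edgeR adjusted p = 0.234). Adrb1 gave a log2 fold change of -0.20 (SE 0.31, edgeR adjusted p = 0.784). Ucp2 spanned 162 to 174 normalized CPM in the controls and 139 to 157 in Adipoq-F2-KO (log2 fold change -0.20, SE 0.08, edgeR adjusted p = 0.233), and Ucp3 spanned 19.5 to 24.6 and 7.77 to 22.2 (log2 fold change -0.53, SE 0.27, edgeR adjusted p = 0.324). Adrb3 was thus abundant in both genotypes, at a mean of 537 TPM, in libraries of which 6 of 7 held at most 0.885 normalized CPM of Ucp1.

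Ppargc1a, a coactivator that drives mitochondrial gene expression, is encoded on chromosome 5 at 51611592 to 51725068 on the - strand. It stood at 3.95, 3.93 and 6.15 normalized CPM in the controls and at 5.22, 4.74, 3.32 and 5.73 in Adipoq-F2-KO. The groups lay across each other, with means of 4.68 ± 1.28 (SD, n = 3) and 4.75 ± 1.04 (SD, n = 4). The log2 fold change was 0.02 with a 95% interval from -0.53 to 0.58 (edgeR adjusted p = 0.977), which leaves room for a difference of up to about that size in either direction. Over the 7 libraries, the genes most like Ppargc1a among 13508 with a mean of at least 1 CPM were Ski (Pearson r 0.986), Syn1 (0.968) and Cmtm4 (0.958), a description from libraries that share depth and composition. For Ucp1 the nearest were Sft2d1 (0.974), Kif20a (0.970) and Gm16168 (0.967), which all had their highest value in Adipoq-F2-KO library 4.

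Prdm16, a zinc finger protein that directs cells toward the brown fate, is encoded on chromosome 4 at 154400582 to 154721330 on the - strand. Its values were 6.14, 6.58 and 3.72 normalized CPM in the controls and 3.56, 4.62, 5.20 and 5.73 in Adipoq-F2-KO. Apart from FFA2 fl/fl library 3, the controls lay above every Adipoq-F2-KO library, and library 3 lay near the bottom of the range. The log2 fold change was -0.20 with an SE of 0.25 and a 95% interval from -0.75 to 0.35 (edgeR adjusted p = 0.716). An antisense gene, B230104I21Rik, shares 109 exon bases with Prdm16 and had 18 counts in FFA2 fl/fl library 3 and 0 elsewhere.

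Cidea, a lipid droplet protein of brown and beige cells, is encoded on chromosome 18 at 67476674 to 67500855 on the + strand. It had 2.62, 1.46 and 2.29 normalized CPM in the controls and 2.01, 0.486, 2.43 and 2.65 in Adipoq-F2-KO. The low value of Adipoq-F2-KO library 2 (16 counts, against 58 to 98 elsewhere) stood below all other libraries, which overlapped. The log2 fold change was -0.16 with a 95% interval from -1.24 to 0.91 (edgeR adjusted p = 0.897), and without library 2 it was 0.16 (edgeR adjusted p = 0.858). The same library held the highest summed germ cell markers (147 normalized CPM, against 0.234 to 14.1 in the others), and their part in this value was not tested.

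Cox8b, a subunit of cytochrome c oxidase in muscle and brown fat, is encoded on chromosome 7 at 140478858 to 140480359 on the - strand. Its values were 3.26, 2.55 and 5.16 normalized CPM in the controls and 4.77, 3.04, 4.31 and 4.82 in Adipoq-F2-KO. Both genotypes held low and high libraries, and the log2 fold change was 0.22 with a 95% interval from -0.41 to 0.84 (edgeR adjusted p = 0.735). Skeletal muscle also expresses Cox8b. Of 9 muscle markers, Ckm had 0 counts in all libraries, and Myh4, Tnnt3, Tnni2 and Pvalb had at most 2, 6, 8 and 10. Mylpf, Myh1 and Actn3 had at most 44, 29 and 60 counts. They were highest in Adipoq-F2-KO library 2, FFA2 fl/fl library 2 and Adipoq-F2-KO library 1. The summed markers were therefore nearly all Acta1. They stood at 40.6, 31.2 and 49.2 normalized CPM in the controls and at 41.4, 28.8, 37.0 and 14.6 in Adipoq-F2-KO. FFA2 fl/fl library 3 had the highest sum and the highest Cox8b, and FFA2 fl/fl library 2 and Adipoq-F2-KO library 2 had low sums and the lowest Cox8b, whereas Adipoq-F2-KO library 4 had the lowest sum and the second highest Cox8b. The part of muscle RNA in the Cox8b values was not tested.

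Elovl3 and Cpt1b, an elongase and a mitochondrial fatty acid gate that brown fat uses when active, were hardly present. Elovl3 had 0, 0 and 4 counts in the controls and 0, 2, 0 and 0 in Adipoq-F2-KO, all within the 6 counts that a count of 0 allows. Cpt1b had 8, 0 and 0 counts in the controls and 0, 4, 0 and 0 in Adipoq-F2-KO. No difference was detectable at this depth, and neither gene passed the filter. The Cpt1b count is uncertain, because 2744 of its exon bases (81.4% of its length) are shared on the same strand with the predicted gene Gm44502, which had 0 counts in every library, and the way overlapping reads were counted is not given in the sources used here. Its partner Cpt2, which completes the transfer inside mitochondria, stood between 79.8 and 100.2 normalized CPM over all libraries (log2 fold change -0.07, SE 0.10, edgeR adjusted p = 0.753).

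Tmem26, a surface marker of beige cells, had 4, 4 and 0 counts in the controls and 10, 6, 4 and 0 in Adipoq-F2-KO. It did not pass the filter, 6 of 7 libraries were at or under the 6 counts that a count of 0 allows, and an exact two-sided permutation test gave p = 0.343. Adipoq-F2-KO library 4, which held the most Ucp1, had 0 counts of Tmem26, which allows up to 0.197 CPM.

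Dio2, the deiodinase that makes active thyroid hormone inside the cell, is encoded on chromosome 12 at 90691326 to 90705812 on the - strand, and its promoter is the run with the full CRE above. It had 28, 18 and 28 counts in the controls, or 0.748, 0.454 and 0.820 normalized CPM. In Adipoq-F2-KO it had 40, 44, 52 and 62 counts, or 1.00, 1.34, 1.44 and 2.10 normalized CPM. Every Adipoq-F2-KO library stood above every control, with means of 1.47 ± 0.461 (SD, n = 4) and 0.674 ± 0.194 (SD, n = 3). The log2 fold change was 1.12 with an SE of 0.46 and a 95% interval from 0.10 to 2.14, and its p of 0.0338 before adjustment became an adjusted p of 0.239 with edgeR and 0.214 with DESeq2, so Dio2 was not called. An exact two-sided permutation test gave p = 0.0571. Omitting each library once gave log2 fold changes between 0.90 and 1.30 (edgeR adjusted p between 0.209 and 0.452). The unadjusted edgeR p exceeded 0.05 without FFA2 fl/fl library 1 (0.0567) or 2 (0.110) and without Adipoq-F2-KO library 3 (0.0576) or 4 (0.0954). Counting error was large at this level, with 14 fragments placing FFA2 fl/fl library 1 between 0.409 and 1.25 normalized CPM. The antisense gene Gm26512 shares 100 exon bases with Dio2 and had at most 14 counts. As for Dio2, the genotypes did not overlap in the summed markers of macrophages (8 markers, 269 to 335 normalized CPM in the controls and 432 to 514 in Adipoq-F2-KO) or of endothelium (6 markers, 855 to 1140 and 1218 to 1940). Nor did they overlap in the summed markers of fibroblast progenitors (7 markers, 768 to 1055 and 1110 to 1293) or of Schwann cells and nerve (6 markers, 0.748 to 2.52 and 2.89 to 5.56), or in the mitochondrial share given above. Marker by marker, the genotypes did not overlap, higher in Adipoq-F2-KO, for 5 of 8 macrophage and 3 of 6 endothelial markers. The same held for 1 of 7 fibroblast progenitor and 0 of 4 tested nerve markers, against 8.86% of all tested genes. The part of these cells and of the mitochondrial share in the Dio2 and Fgf21 values was not tested.

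Around Dio2, the thyroid hormone receptors were near level between genotypes. Thra gave a log2 fold change of 0.01 with a 95% interval from -0.18 to 0.19 (edgeR adjusted p = 0.985), and Thrb of -0.01 with an interval from -0.27 to 0.24 (edgeR adjusted p = 0.969). Dio3, the enzyme that inactivates the hormone, lay between 0.101 and 0.352 normalized CPM in all libraries, and Dio1 had 0 counts in 4 of them. Thrsp, a lipogenic gene that responds to thyroid hormone, had 1317, 1103 and 1121 normalized CPM in the controls and 1095, 608, 806 and 628 in Adipoq-F2-KO, without overlap (log2 fold change -0.59, SE 0.18, edgeR adjusted p = 0.132).

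Fgf21, a hormone of liver and of active brown fat, is encoded on chromosome 7 at 45263310 to 45264914 on the - strand. It had 6, 24 and 20 counts in the controls, or 0.160, 0.605 and 0.586 normalized CPM. In Adipoq-F2-KO it had 38, 36, 36 and 28 counts, or 0.953, 1.09, 0.996 and 0.950 normalized CPM. The 4 Adipoq-F2-KO libraries lay close together (0.998 ± 0.067, SD, n = 4) and above all controls (0.450 ± 0.251, SD, n = 3). The log2 fold change was 1.14 with an SE of 0.59 and a 95% interval from -0.15 to 2.44 (edgeR adjusted p = 0.337), and the exact two-sided permutation p of 0.0286 is the smallest that 35 assignments can give, with no adjustment for the 10 genes tested in this way. FFA2 fl/fl library 1, at the limit that a count of 0 allows, had most weight, and without it the log2 fold change was 0.74 (edgeR adjusted p = 0.662). The receptor of the hormone was plentiful: its coreceptor Klb had a mean of 27.7 TPM and Fgfr1 of 102 TPM, with log2 fold changes of 0.17 (SE 0.10, edgeR adjusted p = 0.381) and -0.04 (SE 0.10, edgeR adjusted p = 0.871).

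**Figure D3:**
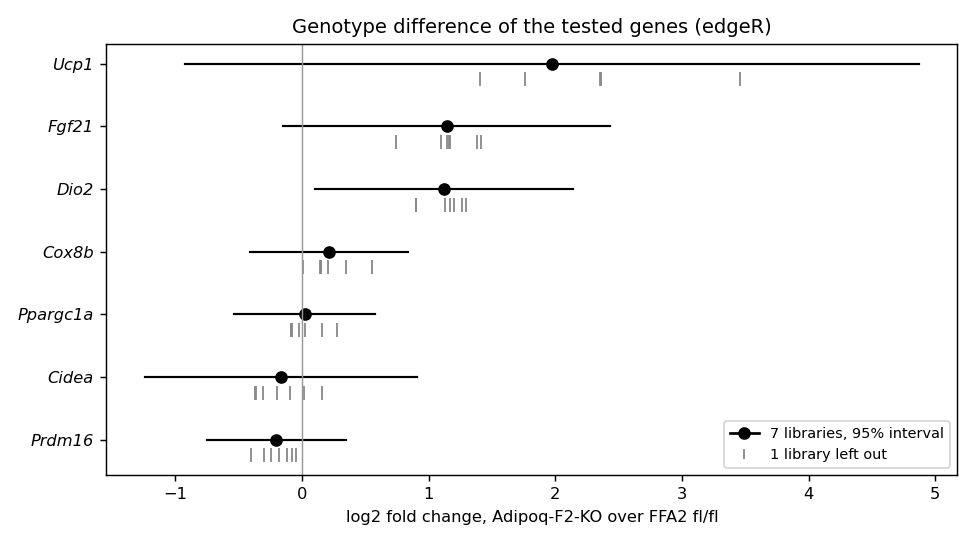
Log2 fold change of Adipoq-F2-KO over FFA2 fl/fl from edgeR for the 7 tested genes, as a point with its 95% interval, with grey ticks for the value when 1 library is left out. Only the interval of Dio2, from 0.10 to 2.14, lies on 1 side of 0, and none of the 7 genes passed after adjustment over all 17039 genes.

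Pairs of members correlated in both directions across the mice, and 7 libraries cannot show whether the members vary together. Over the 21 pairs of the 7 tested genes, Pearson r over the 7 libraries ran from -0.64 (Prdm16 and Cox8b) to 0.66 (Ucp1 and Prdm16), with 14 pairs above 0 and 7 below, as a description only. Summed over the 10 genes, the controls held 16.6 to 18.8 normalized CPM, Adipoq-F2-KO libraries 1 to 3 held 15.8 to 18.7, and library 4 held 27.0. Library 4 was the highest of all 7 for Ucp1, Cidea and Dio2, but not for the other members.

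Beyond the 10 genes, 125 further genes were listed. They comprised genes of the brown and beige programme, 25 partners and paralogues of the 10 genes and 8 genes selective for white fat. Of the 125, 109 were tested. With edgeR 1 of them passed the threshold, in the direction in which 0.798% of all genes did. Metrnl, which encodes the secreted protein meteorin-like, had 9.67, 12.2 and 9.96 normalized CPM in the controls and 18.97, 22.2, 21.8 and 17.4 in Adipoq-F2-KO, so that every Adipoq-F2-KO library lay above every control. It rose by a log2 fold change of 0.92 (SE 0.14, edgeR adjusted p = 0.0332), and the call was lost without FFA2 fl/fl library 1 or 3 or Adipoq-F2-KO library 2 or 3, where the adjusted p lay between 0.0546 and 0.196. Myeloid cells also express Metrnl. All 8 macrophage markers lay above 0 in log2 fold change with 2 called, Cd68 and Lyz2, and the summed macrophage, endothelial, fibroblast progenitor and nerve markers and the mitochondrial share separated the genotypes as Metrnl did. Their part in the Metrnl result was not tested.

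At an unadjusted p under 0.05 stood 31 of the 109 genes, 28.4% against 17.9% of all tested genes, and the median log2 fold change of the 109 was -0.08. Of the 31, 11 were higher in Adipoq-F2-KO (10.1% of the 109, against 10.5% of all tested genes). The other 20 were lower (18.3% of the 109, against 7.37%). General adipocyte markers leaned the same way, with 1 above 0 and 6 below among 7 tested (median -0.11). At an unadjusted edgeR p under 0.05, 1 of these markers was higher and 2 were lower. The part of the adipocyte share of the libraries in the lower values was not tested. By role, the regulators of brown and beige fate gave 16 above 0 and 13 below among 29 tested (median 0.05), with Cebpb the most abundant at a log2 fold change of 0.10 (edgeR adjusted p = 0.771) and Klf15 next at -0.55 (edgeR adjusted p = 0.150). Genes of uncoupling and futile cycling gave 5 above 0 and 12 below (median -0.19), led in level by the nucleotide carriers Slc25a5 at 0.04 (edgeR adjusted p = 0.848) and Slc25a4 at -0.19 (edgeR adjusted p = 0.329). The other brown and beige markers gave 10 above 0 and 14 below (median -0.15), of which the fatty acid transporter Slc27a1 stood at -0.23 (edgeR adjusted p = 0.411) and the small heat shock protein Hspb7 at -0.71 (edgeR adjusted p = 0.196).

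The secreted factors gave 7 above 0 and 5 below among 12 tested (median 0.20), and besides Metrnl the most abundant were Rbp4 at -0.28 (edgeR adjusted p = 0.400) and Vegfb at -0.23 (edgeR adjusted p = 0.329). Partners and relatives of the 10 genes gave 5 above 0 and 14 below (median -0.09), among them Cidec at -0.40 (SE 0.15, edgeR adjusted p = 0.186). White fat genes gave 1 above 0 and 7 below (median -0.15), with resistin (Retn) at -0.04 (edgeR adjusted p = 0.887) and leptin (Lep) at -0.28 (edgeR adjusted p = 0.473). DESeq2 called 7 of the 109 genes, Metrnl included, where it called 4.58% of all its genes. By edgeR 0 were called besides Metrnl, with 31 at an unadjusted p under 0.05 as given above. Sln and Bmp8b, a calcium pump regulator and a factor of heat-producing fat, had 0 counts in all libraries, as Zic1 did, and the beige markers Tbx1 and Cited1 had at most 8 and 7 counts.

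**Figure D4:**
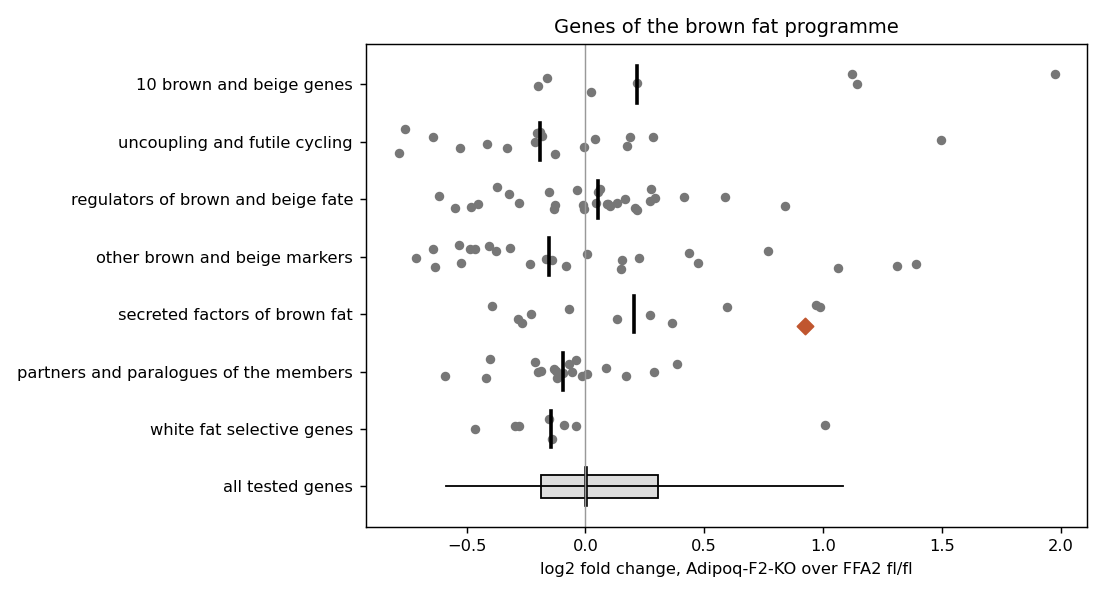
Log2 fold change of Adipoq-F2-KO over FFA2 fl/fl for each tested gene of the 7 lists, 1 point per gene with a bar at the median of the list, and for all tested genes the 5th to 95th percentile (line), the quartiles (box) and the median. The diamond is Metrnl at 0.92, the only gene called by edgeR, and the list medians lie between -0.19 and 0.22.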

How the data were processed

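Gene-level read counts of 7 adipocyte libraries (3 FFA2 fl/fl, 4 Adipoq-F2-KO, grouped by their labels) were used. Per the labels and methods, the authors used Trimmomatic for trimming, STAR for alignment to the mouse genome and featureCounts for counting, and deposited raw counts that had not been normalized. The libraries were stranded, poly-A selected and paired-end. The labels name GRCm38, but the deposited gene coordinates differ from that build, so those are given as deposited, while promoters are RefSeq's on GRCm38.p6. How featureCounts treated strand and overlaps is not given in the sources used here. Of counts from 1 to 49, 85.5% to 88.8% were even, from which counting of both mates was taken. The age is that of the labels.

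Symbols were matched by identifier (52029 of 57010). Low counts were filtered by filterByExpr, libraries scaled by TMM (factors 0.968 to 1.02) and genes tested two-sided with the quasi-likelihood test of edgeR 4.0.16 in R 4.3.3, genotype being the only term, with Benjamini-Hochberg adjustment over 17039 genes and a threshold of 0.05. The study's own tool, DESeq2 (1.42.0 here), was an alternative. Normalized CPM compare libraries, and TPM, computed from the deposited exon lengths, compare genes. Single values were also tested by exact permutation of the means over 35 assignments, which cannot go below p = 0.0286. Likeness was Pearson r of log2 (normalized CPM + 0.1). No 2 libraries of the same genotype agreed within sampling noise. All columns of counts were used. The tests were also run on simulated counts, drawn without an odd library or a shift in composition, and the outcome is not reported here. The members and lists were chosen with earlier results of these data known. Named genes are the members, Ffar2, the genes of each list that were called or had the 2 highest mean TPM, partners beside their member, overlapping genes and the 3 genes most like Ucp1 and Ppargc1a. Other genes (Sln, Bmp8b, Tbx1, Cited1 and those that DESeq2 alone called) were named after their values were seen. Alternatives were other normalization, filter, dispersion, counting in pairs, a replicate block and leaving out each library.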

Additional observations from a re-analysis of the deposited data

Results flagged for a closer look

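Among the 10 genes, 3 had a library in the Adipoq-F2-KO group that stood far from the other 3 by Dixon's criterion, which chance meets in about 5% of groups of continuous values. Ucp1 stood at 5.02 normalized CPM in library 4, against 0.122 to 0.885 in libraries 1 to 3, from 74 fragments. Elovl3 stood at 0.0608 normalized CPM in library 2, where it had 2 counts and the other 3 libraries had 0. Cpt1b stood at 0.122 normalized CPM, also in library 2, with 4 counts where the other 3 had 0. A lone value above 0 among values of 0 always meets the criterion, so for Elovl3 and Cpt1b it says nothing and the 5% does not apply. Their counts lie within the 6 that a count of 0 allows, so no difference between libraries was detectable at this depth.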

How the results depend on the processing

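The count of 0 called members held under every alternative run. Of 96 member log2 fold changes recomputed, 88 kept their direction and their side of the threshold. The other 8 reversed. With the replicate block the log2 fold change of Ucp1 was -0.017 and that of Ppargc1a -0.067. Only Adipoq-F2-KO has a library numbered 4, so under this block that library added nothing to the genotype contrast. Without 1 library Cidea was 0.02 (FFA2 fl/fl 1) and 0.16 (Adipoq-F2-KO 2), in a range from -0.37 to 0.16. Ppargc1a was -0.086 (FFA2 fl/fl 1), -0.089 (FFA2 fl/fl 2), -0.026 (Adipoq-F2-KO 1) and -0.078 (Adipoq-F2-KO 4), in a range from -0.089 to 0.28. The cause of the reversals was not tested further. Ucp1 gave no value without Adipoq-F2-KO library 3 or 4.

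Over all genes, 173 of 17039 were called. With every gene of at least 1 count kept it was 1403 of 28515, and with DESeq2 869 of 18969. With 1 library left out it was 1 to 178 (1, 41 and 5 without FFA2 fl/fl 1, 2 and 3, and 178, 11, 20 and 166 without Adipoq-F2-KO 1 to 4). Of the 109 further listed genes 1 was called, against 19 with the looser filter and 7 with DESeq2. There were 3 in read pairs, 2 under the replicate block and 0 to 3 with 1 library left out. The cause of these differences was not tested. DESeq2 called Metrnl, Pprc1 and Gatm higher and Acot2, Fbxo31, Nrg4 and Thrsp lower. DESeq2 was first run with its filter set for 0.05, which called 890 genes. Of these, 8 were further listed genes (Klf15 in addition) and 0 were members. The planned default setting was run after those results had been seen. With the looser filter the unadjusted edgeR p of Dio2 was 0.0637, and with the replicate block it was 0.116 and the median of the 7 members -0.017 (3 above 0 and 4 below). With 1 library left out the medians of the 6 other lists kept their sign. No pairing by replicate number was seen. Same-numbered libraries correlated at -0.02 to 0.03 in their deviations, and 1 of 3 controls correlated best with its own number. With 3 pairs this cannot exclude a pairing, and the labels do not say what the numbers mark. Depth limits Elovl3, Cpt1b and Tmem26, for which no fold is given, and the intervals of Ucp1, Dio2 and Fgf21.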
